A study of Mus musculus with 12 samples.

Results

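The genes described here are 10 genes of protein folding in the endoplasmic reticulum (ER): Hspa5, Hsp90b1, Dnajb9, Sdf2l1, Manf, Pdia3, Pdia4, Pdia6, Calr and Xbp1. They were taken by name from the deposited table, where 11 of 35556 probe sets carried 1 of these names, and they are 10 of the 19938 genes tested. A second Pdia4 probe set, with signals of 3.75 to 4.2 on the log2 scale on the 12 arrays, was not used because the probe set with the higher mean stood for each gene.

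Secreted and membrane proteins enter the ER unfolded and are held, glycosylated and cross-linked by disulphide bonds there before they leave for the Golgi. When unfolded proteins build up, the sensors IRE1 (Ern1), PERK (Eif2ak3) and ATF6 start the unfolded protein response: IRE1 splices Xbp1 mRNA into the form that encodes an active transcription factor, ATF6 is cut to release another, and PERK slows translation and raises ATF4. XBP1 and cleaved ATF6 are known to raise chaperone genes, and ATF4 raises genes of amino acid supply and Ddit3 (CHOP). Macrophages carry a heavy secretory and lysosomal load, and lipid loading is a known setting of this response in them.

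The study asked how macrophages respond to taking up red blood cells (RBC) from mice on a high-fat diet. C57BL/6 mice, 6 weeks old at the start, received either chow or high-fat food over 12 weeks, and peritoneal macrophages elicited with thioglycollate were then given chow RBC, high-fat RBC or no RBC in culture. The 6 groups of 2 arrays (Affymetrix Mouse Gene 1.0 ST) are therefore chow macrophages with no RBC, with chow RBC or with high-fat RBC, and high-fat macrophages with the same 3 treatments. All mice received thioglycollate, and no genotype other than the C57BL/6 strain is named. The labels number the 2 arrays of a group as animal replicates without saying whether 1 animal served several groups, so p-values measure the spread between these arrays. How long the RBC were left on the cells is not stated in the labels.

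Values are deposited log2 signals per probe set, and a difference of 1 is a doubling. A gene was called where its limma p, adjusted by the Benjamini-Hochberg method over all 19938 genes, was below 0.05. Errors of differences are standard errors of the fit, in which all 6 groups shared 1 estimate of the spread. Levels are set side by side between groups for 1 gene, never between genes, since probe sets differ in brightness. The samples bore macrophage markers throughout, with Cd68 at 12.09 to 12.21 and Lyz2 at 12.27 to 12.45 on all arrays. These varied least of the 9 macrophage markers measured. Others varied more, such as Adgre1 at 8.92 to 10.21, Cd14 at 8.35 to 10.73 and Fcgr1 at 6.4 to 8.69. The replicates of 5 groups differed by a root mean square of 0.151 to 0.191 over all genes, and those of the high-fat macrophages without RBC by 0.241. Over the 10 genes that group's replicates differed by 0.279, against 0.062 to 0.152 in the others, so each value that rests on it is also given below without 1 of its arrays where that changes a call.

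The ER stress element, CCAAT followed after 9 bases by CCACG, is the known site through which cleaved ATF6 with NF-Y acts, and its sequence is shown for the genes whose promoter held it. Of the 10 genes, 9 had a RefSeq promoter (GRCm38.p6, 250 bases before to 50 after the start), and Manf had none in that table. The element was found in 4 of these 9, Hspa5, Hsp90b1, Pdia6 and Calr. The windows below run 5′ to 3′ on the gene's own strand, with the CCAAT and CCACG parts in capitals, which read as ATTGG and CGTGG where the element lies on the opposite strand.
Hspa5 (chr2:34772015-34772053, plus strand): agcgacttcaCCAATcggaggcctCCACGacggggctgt
Pdia6 (chr12:17266481-17266519, plus strand): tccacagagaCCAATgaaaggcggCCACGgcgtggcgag
Calr (chr8:84847065-84847103, minus strand): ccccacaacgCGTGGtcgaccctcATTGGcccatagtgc
Hsp90b1 (chr10:86705523-86705666, minus strand): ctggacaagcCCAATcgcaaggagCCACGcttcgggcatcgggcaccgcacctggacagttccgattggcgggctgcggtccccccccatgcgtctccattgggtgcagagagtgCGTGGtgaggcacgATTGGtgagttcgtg
The Hspa5 element began 65 bases before the start, that of Pdia6 98 bases and that of Calr 162 bases before it. Hsp90b1 held 2, beginning 212 and 107 bases before the start on opposite strands. Both strands of every promoter in the table were searched, and 39 of 32851 promoters (0.119%) held the element. ERSE-II, which is ATTGG, 1 base and CCACG, was in 0 of the 9 and in 0.0365% of all promoters, and the UPRE core TGACGTGG was in 0 of the 9 and in 0.676%. CCACG alone, which the ER stress element contains, was in 7 of the 9 and in 32.8% of all promoters. Xbp1 and Pdia3 held none of these motifs in the window. The matches describe these letters only, and binding was not measured in this study.

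**Figure D1:**
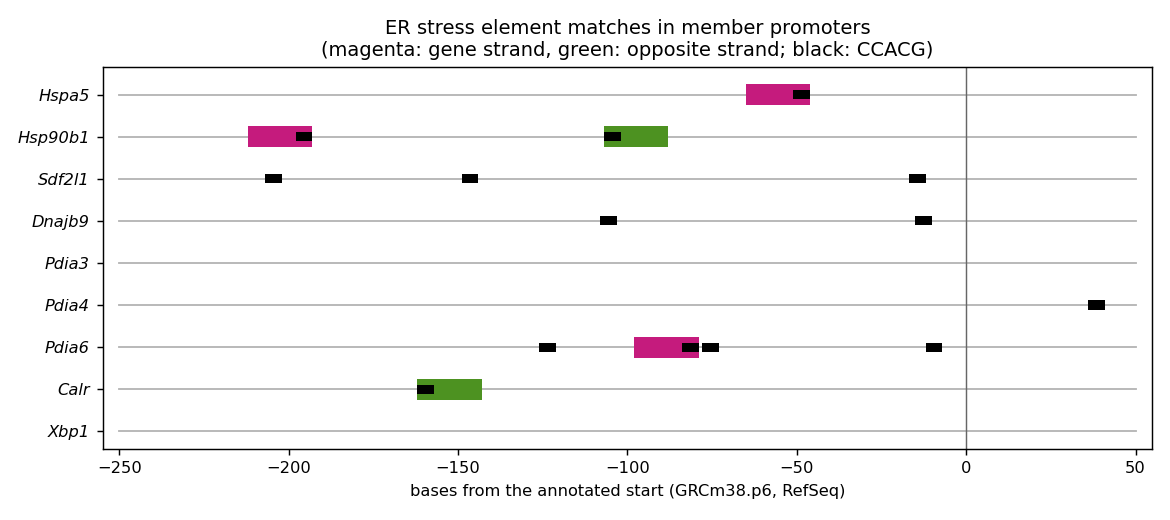
Positions of motif matches in the RefSeq promoters of 9 of the 10 genes, in bases from the annotated start (x axis, GRCm38.p6), with 1 gene per line. Magenta and green boxes are ER stress elements on the gene's own and the opposite strand, found in Hspa5, Hsp90b1, Pdia6 and Calr, and black boxes are CCACG, which in Pdia4 lies past the start.

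Hspa5 encodes BiP, the ER member of the HSP70 family and the chaperone that also holds the sensors inactive. Its signal in chow macrophages was 10.20 and 10.34 without RBC, 10.51 and 10.44 with chow RBC, and 10.44 and 10.49 with high-fat RBC. In high-fat macrophages it was 10.52 and 10.72 without RBC, 10.92 and 10.88 with chow RBC, and 10.74 and 10.92 with high-fat RBC. Every array of high-fat macrophages lay above every array of chow macrophages, by as little as 10.52 against 10.51, and the chow macrophages without RBC were the lowest group.

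Hsp90b1 encodes GRP94, the ER member of the HSP90 family, which folds integrins and Toll-like receptors. Its signal in chow macrophages was 10.61 and 10.53 without RBC, 10.93 and 10.74 with chow RBC, and 10.89 and 10.78 with high-fat RBC. In high-fat macrophages it was 11.00 and 11.03 without RBC, 11.11 and 11.14 with chow RBC, and 11.08 and 11.16 with high-fat RBC. The order was that of Hspa5: the high-fat arrays did not overlap the chow arrays, and chow macrophages without RBC stood lowest.

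Sdf2l1 encodes a small ER protein that works with BiP and its cochaperones. In chow macrophages it read 8.29 and 8.22 without RBC, 8.76 and 8.69 with chow RBC, and 8.51 and 8.58 with high-fat RBC. In high-fat macrophages it read 8.58 and 9.02 without RBC, 9.22 and 9.28 with chow RBC, and 8.98 and 9.14 with high-fat RBC. The high-fat group without RBC was wide, and its lower array lay among the chow macrophages given RBC.

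Manf encodes a secreted, BiP-binding protein of the ER with known survival-promoting effects. Chow macrophages had 7.47 and 7.56 without RBC, 7.66 and 7.75 with chow RBC, and 7.75 and 7.88 with high-fat RBC. High-fat macrophages had 7.87 and 7.86 without RBC, 8.15 and 8.01 with chow RBC, and 8.12 and 7.98 with high-fat RBC. The group means climbed from chow macrophages without RBC to high-fat macrophages with either RBC, and the latter pair overlapped.

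Pdia3, Pdia4 and Pdia6 encode protein disulphide isomerases, and Pdia3 (ERp57) serves glycoproteins held by calreticulin. Pdia4 read 7.33 and 7.10 in chow macrophages without RBC, 7.97 and 7.84 with chow RBC, and 8.02 and 7.91 with high-fat RBC. In high-fat macrophages Pdia4 read 7.78 and 7.93 without RBC, 8.19 and 8.10 with chow RBC, and 8.15 and 8.12 with high-fat RBC. The 2 low Pdia4 arrays stood well apart from the other 10, which lay between 7.78 and 8.19. The dimmer Pdia4 probe set that was not used did not show this gap. Without RBC it read 3.90 and 3.75 in chow and 3.84 and 3.89 in high-fat macrophages. In chow macrophages it read 4.02 and 3.78 with chow RBC and 4.20 and 4.06 with high-fat RBC.

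Pdia3 read 9.61 and 9.64 in chow macrophages without RBC, 10.19 and 9.89 with chow RBC, and 10.15 and 10.08 with high-fat RBC. In high-fat macrophages it read 10.03 and 10.42 without RBC, 10.29 and 10.26 with chow RBC, and 10.31 and 10.43 with high-fat RBC. Only the chow macrophages without RBC were clear of all other groups for Pdia3. Pdia6 read 8.44 and 8.24 in chow macrophages without RBC, 8.90 and 8.78 with chow RBC, and 8.80 and 8.77 with high-fat RBC. In high-fat macrophages Pdia6 read 8.62 and 9.13 without RBC, 9.17 and 9.18 with chow RBC, and 9.01 and 9.30 with high-fat RBC. The gap of 8.62 to 9.13 between replicates was the widest of the 10 genes in any group.

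Calr encodes calreticulin, the soluble lectin chaperone that holds glycoproteins and stores calcium. Its signal in chow macrophages was 9.89 and 10.03 without RBC, 10.28 and 10.23 with chow RBC, and 10.33 and 10.32 with high-fat RBC. In high-fat macrophages it was 10.14 and 10.30 without RBC, 10.40 and 10.39 with chow RBC, and 10.28 and 10.36 with high-fat RBC. Chow macrophages without RBC were again lowest, and the other groups spanned 10.14 to 10.40.

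Xbp1 and Dnajb9 did not share this order. Xbp1 read 8.03 and 8.14 in chow macrophages without RBC, 8.16 and 7.98 with chow RBC, and 8.10 and 8.01 with high-fat RBC. In high-fat macrophages Xbp1 read 7.81 and 8.11 without RBC, 8.18 and 8.22 with chow RBC, and 8.17 and 8.02 with high-fat RBC. Neighbouring groups in the order of Xbp1 overlapped except for high-fat macrophages with high-fat and with chow RBC. Its probe set does not tell spliced from unspliced mRNA, so the active form of Xbp1 was not measured.

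Dnajb9 encodes ERdj4, a BiP cochaperone that is known to restrain IRE1 and is a textbook target of XBP1. It read 8.55 on both arrays of chow macrophages without RBC, 8.36 and 8.28 with chow RBC, and 8.27 and 8.33 with high-fat RBC. In high-fat macrophages it read 8.34 and 8.37 without RBC, 8.32 and 8.28 with chow RBC, and 8.50 and 8.38 with high-fat RBC. The group that was lowest for 8 of the 10 genes was thus the highest for Dnajb9, clear of the next.

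**Figure D2:**
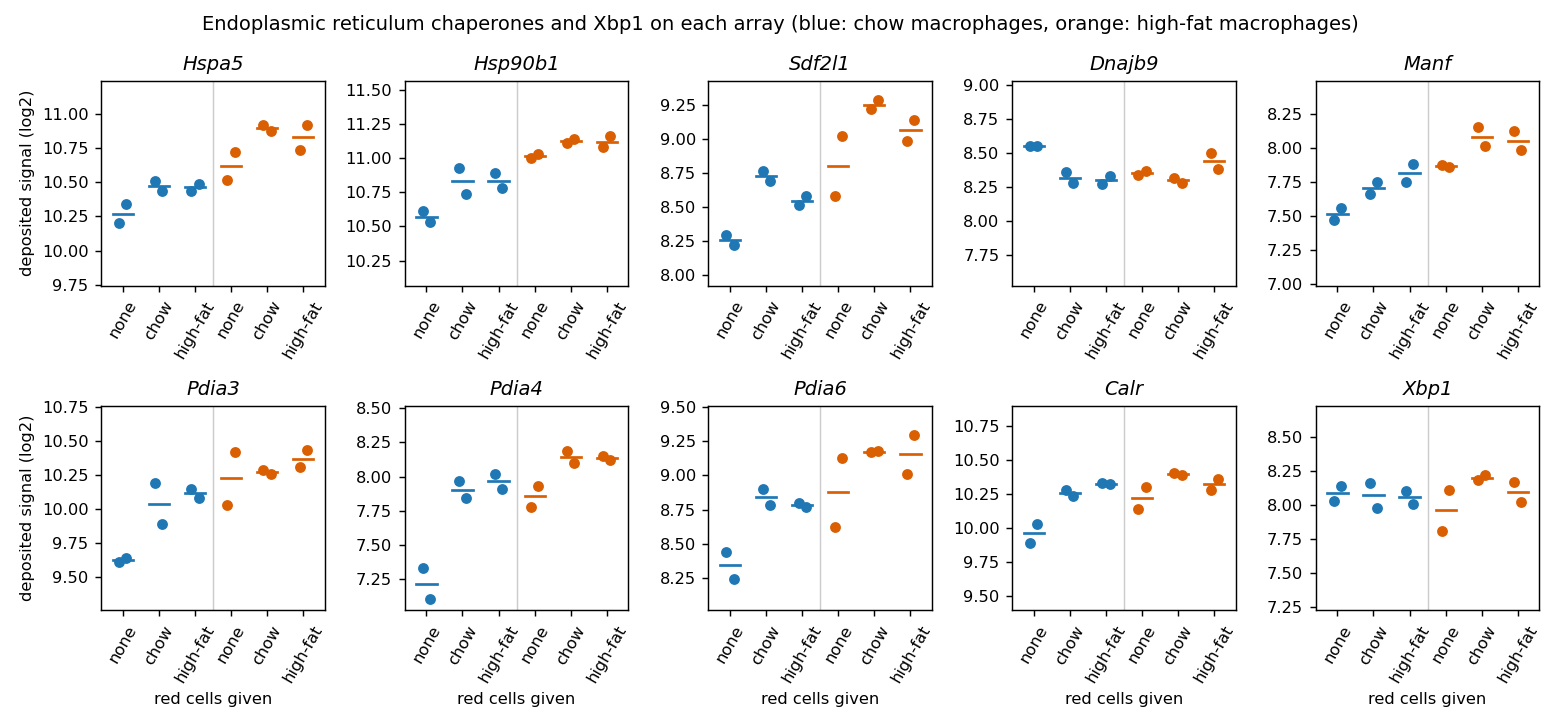
Deposited log2 signal (y axis) of the 10 genes on each of the 12 arrays, by RBC given (x axis), in chow (blue) and high-fat (orange) macrophages. Points are arrays and bars are means of 2 arrays; every panel spans the same log2 range, and the chow macrophages without RBC are lowest for 8 of 10 genes and highest for Dnajb9.

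Across the 12 arrays, the 8 genes other than Xbp1 and Dnajb9 correlated with each other at Pearson r of 0.78 to 0.96. The closest pairs were Pdia6 with Sdf2l1 and Hspa5 with Sdf2l1, both at 0.96. Xbp1 correlated with these 8 at 0.18 to 0.39, and Dnajb9 at -0.73 (Calr) to -0.36 (Hspa5). These are descriptions over arrays that share groups, diets and treatments. Outside the 10 genes, the closest match to their mean pattern over the 12 arrays was with Tpp1 and Csnk1g2 (both r = 0.983), Atp1b1 (0.982), Dnajc3 (0.981) and Hsd17b11 (0.978).

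Without RBC, 7 of the 10 genes were called as higher in high-fat than in chow macrophages, and 8 differences were above 0. Pdia4 was 1.56-fold higher, Pdia3 1.52-fold, Sdf2l1 1.47-fold, Pdia6 1.45-fold, Hsp90b1 1.37-fold, and Manf and Hspa5 1.28-fold and 1.27-fold. Of all genes, 13.9% were called in this comparison, 8.12% as higher. The median difference of the 10 genes was 0.40, against -0.01 over all genes. In log2 terms the differences were 0.64 ± 0.11 for Pdia4 (adjusted p = 0.000925), 0.60 ± 0.13 for Pdia3 (0.00657), 0.55 ± 0.13 for Sdf2l1 (0.0092) and 0.53 ± 0.15 for Pdia6 (0.0268). They were 0.45 ± 0.10 for Hsp90b1 (adjusted p = 0.00681), 0.35 ± 0.10 for Manf (0.032) and 0.35 ± 0.11 for Hspa5 (0.0417).

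Calr (0.26 ± 0.10, adjusted p = 0.0961), Xbp1 (-0.13, 95% interval -0.38 to 0.12) and Dnajb9 (-0.19, -0.39 to 0.01) did not pass. Calr was called after quantile normalization (0.0264) and with an intensity trend and robust prior (0.0248). Both high-fat arrays lay above both chow arrays for 8 genes and below them for Dnajb9, and 24.4% of all genes were separated in each direction. With only 2 arrays a side, the calls depended on single arrays. Pdia4 kept its call without any 1 array, with adjusted p of at most 0.0208. Leaving out replicate 2 of the chow macrophages without RBC ended the calls of Pdia6 (a difference of 0.43, adjusted p = 0.207), Sdf2l1 (0.52, 0.0763), Hsp90b1 (0.41, 0.0677), Manf (0.39, 0.0852) and Hspa5 (0.42, 0.0764). Leaving out replicate 2 of the high-fat macrophages without RBC ended those of Pdia3 (a difference of 0.41, adjusted p = 0.0626), Pdia6 (0.28, 0.228), Sdf2l1 (0.33, 0.0785), Manf (0.36, 0.0741) and Hspa5 (0.25, 0.214), so that 2 calls remained in either case. Manf also lost its call without replicate 1 of either group (adjusted p = 0.169 and 0.0885), and Hspa5 without chow replicate 1 (0.231) or any 1 of both chow groups with RBC or the high-fat group with chow RBC (0.0502 to 0.0627).

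The other ER genes differed in the same comparison as follows, by lists chosen with earlier results of these data known. Of 28 other ER chaperones and oxidoreductases, 10 were higher and 1 lower, with Fkbp7, a prolyl isomerase, at 0.73 ± 0.12 (adjusted p = 0.000745) and Creld2, an ER stress-inducible protein, at 0.53 ± 0.12 (0.0069, or 0.0958 without replicate 2 of the chow group). Of 29 genes of translocation and N-glycosylation, 10 were higher and 0 lower. Among them were Uggt1, the sensor of glycoprotein folding (0.57 ± 0.11, 0.00202), and Tram1, a translocon protein (0.54 ± 0.10, 0.00251). Of 23 genes of ER-associated degradation 4 were higher and 1 lower, led by Erlec1 (0.63 ± 0.09, 0.000343) and Edem1 (0.49 ± 0.10, 0.00339), lectins of that pathway. Of 23 genes of ER to Golgi transport 3 were higher and 1 lower, among them the SNARE gene Bet1 (0.72 ± 0.13, 0.00178) and the KDEL receptor gene Kdelr3 (0.70 ± 0.12, 0.000848). Medians were 0.24 for chaperones and oxidoreductases and 0.23 for translocation and N-glycosylation. They were -0.03 for degradation, with 11 of 23 genes above 0, and 0.06 for ER to Golgi transport, with 16 of 23 above 0. Over all genes, 13.9% were called, 8.12% as higher.

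Of the 12 stress sensors and processing genes, 2 were called as higher, 1 as lower and 9 were not called. Of all genes, 13.9% were called, 8.12% as higher. Ern1, which encodes IRE1, was lower by -0.71 ± 0.13 (adjusted p = 0.00162), whereas Creb3l2, an ATF6-like factor, was higher by 0.62 ± 0.12 (0.00337). Eif2ak3, which encodes PERK, was higher by 0.45 ± 0.10 (0.00788), but not without replicate 1 of the chow group (0.0941). The list of Atf4 and its targets went the other way from the chaperones: 13 of 23 were lower and 0 higher, with a median of -0.50. Slc7a11, the cystine transporter gene, differed by -1.89 ± 0.11 (2.96e-08), Nupr1, a stress-inducible nuclear protein gene, by -1.75 ± 0.10 (3.98e-08), and Asns, asparagine synthetase, by -1.07 ± 0.10 (4.45e-06). Ddit3 differed by -0.87 ± 0.10 (2.54e-05) and Atf4 by -0.54 ± 0.10 (0.00229). Of 16 cytosolic and mitochondrial heat shock genes, 1 was higher and 2 lower, among the latter Hspa9, mitochondrial HSP70 (-0.46 ± 0.09, 0.00339).

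**Figure D3:**
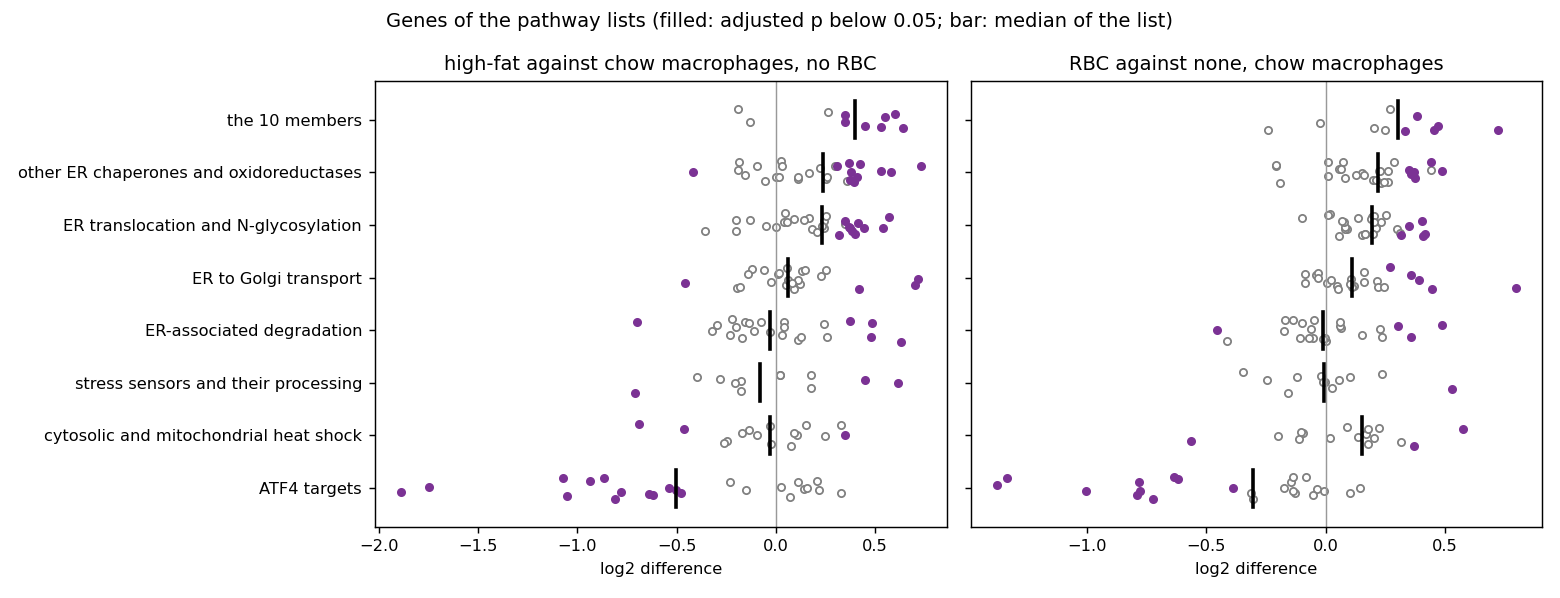
Log2 differences (x axis) of the genes of each list (y axis) for high-fat against chow macrophages without RBC (left) and RBC against none in chow macrophages (right). Each point is a gene, filled purple where its adjusted p was below 0.05, and the black bar is the list's median, 0.40 and 0.30 for the 10 genes and -0.50 and -0.31 for Atf4 and its targets.

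Markers of cell types differed as follows in the same comparison, in which 13.9% of all genes were called, 8.12% as higher. The 13 B and plasma cell markers, of which 10 were lower and 1 higher, had a mean signal of 5.53 to 5.64 on the arrays of chow macrophages without RBC and 4.77 to 4.95 on those of high-fat macrophages without RBC. Cd79a, a B cell receptor gene, differed by -2.19 ± 0.17 (adjusted p = 6.41e-07). Of 9 macrophage markers, 4 were lower and 2 higher, and their mean was 9.982 to 9.997 against 9.53 to 9.56. Neutrophil markers (14 measured, 0 higher and 5 lower) averaged 5.59 to 5.61 against 5.15 to 5.27, platelet markers (9, 0 and 3) 5.90 to 5.93 against 5.50 to 5.69, and mesothelial and fibroblast markers (12, 3 and 0) 5.55 to 5.58 against 5.74. Erythroid markers (11, 1 and 0) averaged 4.36 to 4.39 against 4.36 to 4.46. Their part in the chaperone differences was not tested. In these bulk samples, fewer cells of a type and less RNA per cell cannot be told apart.

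In chow macrophages, 5 of the 10 genes were called as higher with RBC, averaged over both kinds, than without, and 8 differences were above 0. Pdia4 rose most, 1.65-fold, ahead of Pdia6 (1.38-fold), Pdia3 (1.37-fold), Sdf2l1 (1.30-fold) and Calr (1.26-fold). Of all genes, 12.7% were called, 8.22% as higher, and the median of the 10 genes was 0.30 against -0.03 over all genes. The log2 differences were 0.72 ± 0.09 for Pdia4 (adjusted p = 0.00016), 0.47 ± 0.13 for Pdia6 (0.0275), 0.45 ± 0.11 for Pdia3 (0.0182), 0.38 ± 0.11 for Sdf2l1 (0.0364) and 0.33 ± 0.08 for Calr (0.0184). Hsp90b1 (0.27 ± 0.09, 0.0542), Manf (0.25 ± 0.09, 0.0819) and Hspa5 (0.20 ± 0.09, 0.165) did not pass, nor did Xbp1 (-0.02, 95% interval -0.24 to 0.19) or Dnajb9 (-0.24, -0.41 to -0.07, adjusted p = 0.0653). All 4 exposed arrays lay above both unexposed arrays for 8 genes and below them for Dnajb9, against 20.2% and 20.6% of all genes.

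The Pdia4 call held without any 1 array (adjusted p of at most 0.0081). Pdia3 lost its call without replicate 1 of the chow RBC (0.0594), high-fat RBC (0.0553) or no RBC group (0.104), or replicate 2 of the last (0.122). Pdia6 lost its call without replicate 1 of the chow RBC group (0.078), either array of the high-fat RBC group (0.0697 and 0.0621) or either array without RBC (0.0561 and 0.282). Calr lost its call without high-fat RBC replicate 1 (0.0538) or either array without RBC (0.159 and 0.0575), and Sdf2l1 without any of the 6 chow macrophage arrays (0.0575 to 0.252). Hsp90b1 was called without chow RBC replicate 2 (0.0366) or either array of the high-fat macrophages without RBC (0.0466 each), with the lowest 33.3% of genes left out (0.0347) and with an intensity trend and robust prior (0.00801). Dnajb9 was called as lower under those 2 settings (0.0409 and 0.0369) and after quantile normalization (0.0448). This comparison and the diet comparison above share the 2 arrays of chow macrophages without RBC, so their differences are not independent.

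Among the other lists in this comparison, 6 of 28 chaperones and oxidoreductases, 5 of 29 genes of translocation and N-glycosylation and 5 of 23 genes of ER to Golgi transport were higher, and 0 lower. Kdelr3 rose by 0.80 ± 0.10 (adjusted p = 0.000138) and Sec24d, a COPII coat gene, by 0.45 ± 0.08 (0.00276). Ostc, of the oligosaccharyltransferase, rose by 0.41 ± 0.08 (0.00355), but not without replicate 2 of the group with no RBC (0.0655). Of 23 degradation genes 3 were higher, Erlec1 among them (0.49 ± 0.08, 0.00125), and 1 lower. That was Herpud1, a scaffold of the degradation complex (-0.46 ± 0.11, 0.0157), which lost its call without high-fat RBC replicate 1 (0.0577) or replicate 2 without RBC (0.238). Creb3l2 alone of the 12 sensors and processing genes was called (0.53 ± 0.11, 0.00454, or 0.0601 without replicate 1 with no RBC). Of 16 heat shock genes, 2 were higher and 1 lower. Over all genes, 8.22% were called as higher, and the degradation list had a median of -0.01.

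Of Atf4 and its targets, 10 of 23 were lower with RBC and 0 higher, with a median of -0.31. Nupr1 differed by -1.38 ± 0.09 (adjusted p = 2.36e-07), Asns by -1.34 ± 0.09 (3.03e-07) and Mthfd2, a mitochondrial folate enzyme gene, by -1.003 ± 0.09 (9.77e-06). Atf4 itself differed by -0.39 ± 0.09 (0.01), but did not pass without either array with no RBC (0.0766 and 0.0751), and Ddit3 by -0.13 ± 0.08 (0.34). Neutrophil markers (14 measured, 5 higher and 1 lower) averaged 5.59 to 5.61 without RBC and 6.19 to 6.33 with either RBC. Platelet markers (9, 4 and 0) averaged 5.90 to 5.93 without and 6.39 to 6.83 with RBC, B and plasma cell markers (13, 0 and 5) 5.53 to 5.64 without and 5.16 to 5.27 with RBC, and mesothelial and fibroblast markers (12, 4 and 0) 5.55 to 5.58 and 5.71 to 5.85. Erythroid markers (11, 2 and 0) averaged 4.36 to 4.39 and 4.38 to 4.61, and macrophage markers (9, 2 and 2) 9.982 to 9.997 and 10.02 to 10.12. Of all genes, 12.7% were called in this comparison, 8.22% as higher. The part of other cells in the RBC preparations was not tested.

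**Figure D4:**
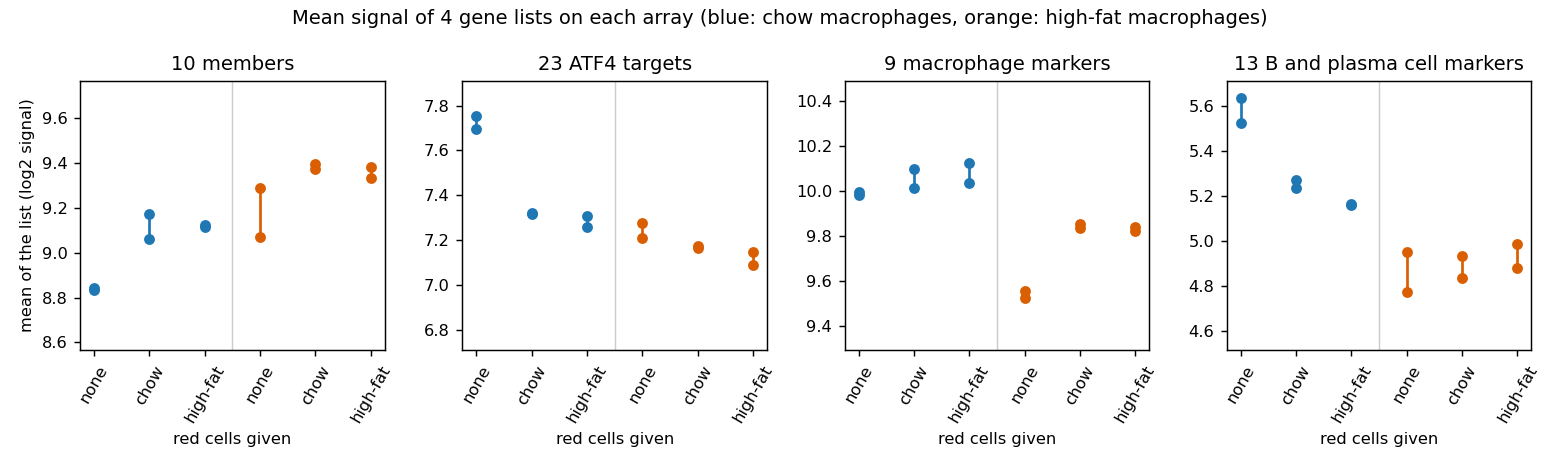
Mean log2 signal (y axis) of the 10 genes, of Atf4 and its targets, of macrophage markers and of B and plasma cell markers on each array, by RBC given (x axis), in chow (blue) and high-fat (orange) macrophages. Lines join the 2 arrays of a group; chow macrophages without RBC have the lowest mean of the 10 genes (8.83 to 8.84) and the highest of the Atf4 list (7.70 to 7.75) and of the B and plasma cell list (5.53 to 5.64).

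In high-fat macrophages, RBC against none gave limma differences of 0.01 (Dnajb9) to 0.35 (Sdf2l1), all 10 above 0, with a median of 0.20. None of the 10 passed the test, and 5 had an unadjusted p below 0.05. Of all genes, 1.08% were called and 10.8% had an unadjusted p below 0.05. The same test with an intensity trend and a robust prior also called 0. Sdf2l1 differed by 0.35 ± 0.11 (adjusted p = 0.223), Pdia6 by 0.29 ± 0.13 (0.433), Pdia4 by 0.28 ± 0.09 (0.247) and Hspa5 by 0.25 ± 0.09 (0.322). Without replicate 2 of the group with no RBC, which had the higher signal of its pair in every one of the 10 genes but Manf, Pdia6 (0.54, adjusted p = 0.0359) and Sdf2l1 (0.57, 0.0158) were called. Without replicate 1 of that group Pdia6 differed by 0.04 (adjusted p = 0.984) and Sdf2l1 by 0.13 (0.876). All 4 exposed arrays lay above both unexposed arrays for 4 of the 10 genes, against 8.87% of all genes. Neutrophil markers (14 measured, 6 higher and 0 lower) averaged 5.15 to 5.27 without RBC and 6.07 to 6.34 with RBC, and platelet markers (9, 6 and 0) 5.50 to 5.69 and 6.40 to 6.84. Macrophage markers (9, 2 and 0) averaged 9.53 to 9.56 without RBC and 9.82 to 9.85 with RBC. Of 13 B and plasma cell markers 1 was higher (4.77 to 4.95 and 4.84 to 4.98), of 11 erythroid markers 1 was higher (4.36 to 4.46 and 4.40 to 4.68), and of 12 mesothelial and fibroblast markers 1 was lower (5.74 and 5.67 to 5.77). The part of these cell types in the differences was not tested.

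The difference between both RBC responses was tested as an interaction, which was called for 0 of the 10 genes and for 5.67% of all genes. At an unadjusted p below 0.05 there were 3 of the 10 genes, against 17.8% of all genes. For Pdia4 the response of high-fat minus that of chow macrophages was -0.44 ± 0.13, which missed the threshold (adjusted p = 0.075). It was called with the lowest 33.3% of genes left out (0.0491) and with an intensity trend and robust prior (0.041). Pdia3 differed by -0.35 ± 0.16 (0.27) and Dnajb9 by 0.25 ± 0.11 (0.258). For Hspa5, Sdf2l1 and Manf the interaction lay between -0.05 and 0.05. The response of chow and high-fat macrophages is therefore not shown to differ for any of the 10 genes.

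Averaged over both macrophage diets, 5 of the 10 genes were called as higher with RBC than without. These were Pdia4 (0.50 ± 0.07, adjusted p = 0.000325), Pdia6 (0.38 ± 0.09, 0.0209), Sdf2l1 (0.36 ± 0.08, 0.0116), Calr (0.24 ± 0.06, 0.0282) and Manf (0.22 ± 0.06, 0.0441). In high-fat macrophages alone 0 of the 10 were called, and Manf was called in neither diet alone. Of all genes, 7.42% were called, 5.23% as higher. Hspa5 (0.23 ± 0.06, 0.0507), Pdia3 (0.28 ± 0.08, 0.054) and Hsp90b1 (0.19 ± 0.06, 0.0771) did not pass, and all 3 passed with an intensity trend and robust prior, which called 8. Pdia4 held without any 1 array (adjusted p of at most 0.00429). Without replicate 2 of the chow macrophages with no RBC it was the only one of the 10 called: Pdia6 (0.127), Sdf2l1 (0.0676), Calr (0.0551) and Manf (0.101) lost their calls. Pdia6 also lost its call without replicate 1 of the high-fat macrophages with no RBC (0.0993). Calr lost its call without any 1 of 9 of the 12 arrays (0.0527 to 0.112). The exceptions were, in chow macrophages, replicate 2 of the chow RBC group and, in high-fat macrophages, replicate 2 of the no RBC group and replicate 1 of the high-fat RBC group. Manf lost its call without any array (0.0502 to 0.129) except replicate 2 of the high-fat RBC group in high-fat macrophages. Pdia3 was called without replicate 2 of the chow RBC group in chow macrophages (0.0331) or replicate 2 of the no RBC group in high-fat macrophages (0.00901). Hspa5 was called without that last array (0.0215) or without replicate 1 of the high-fat RBC group in high-fat macrophages (0.0411). Of 14 neutrophil markers 7 were higher and 1 lower, of 9 platelet markers 6 and 0, and of 13 B and plasma cell markers 0 and 4. Of 9 macrophage markers 4 were higher and 1 lower, of 11 erythroid markers 2 and 0, and of 12 mesothelial and fibroblast markers 2 and 0. The part of these cell types in the averaged differences was not tested.

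Among macrophages given RBC, 4 of the 10 genes were called as higher in high-fat than in chow macrophages, and all 10 differences were above 0. This comparison uses the 8 exposed arrays and none of the unexposed ones, apart from the shared estimate of the spread. Sdf2l1 was 1.43-fold higher, Hspa5 1.31-fold, Manf 1.24-fold and Hsp90b1 1.22-fold. Of all genes, 4.85% were called, 2.2% as higher. The log2 differences were 0.52 ± 0.09 for Sdf2l1 (adjusted p = 0.00331), 0.39 ± 0.07 for Hspa5 (0.00618), 0.31 ± 0.07 for Manf (0.0228) and 0.29 ± 0.07 for Hsp90b1 (0.0298). Pdia6 (0.35 ± 0.10, 0.077), Pdia3 (0.25 ± 0.09, 0.177) and Pdia4 (0.20 ± 0.08, 0.176) did not pass. For Calr (0.07 ± 0.07), Xbp1 (0.09, 95% interval -0.09 to 0.26) and Dnajb9 (0.06, -0.08 to 0.20) the differences were smaller still. All 4 high-fat arrays lay above all 4 chow arrays for 7 of the 10 genes, against 6.52% of all genes.

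Sdf2l1 and Hspa5 kept their calls among exposed macrophages without any 1 array (adjusted p of at most 0.0212 and 0.0361). Hsp90b1 lost its call without any of the 8 exposed arrays (0.0577 to 0.148) except replicate 1 of the chow RBC group in chow macrophages, and Manf without replicate 1 of any of the 4 exposed groups (0.0878 to 0.12). Pdia6 was called without either array of the high-fat macrophages with no RBC (0.0182 each), after quantile normalization (0.0168) and with an intensity trend and robust prior (0.0313). Of the other lists, 5 of 28 chaperones and oxidoreductases, 4 of 23 degradation genes and 3 of 29 genes of translocation and N-glycosylation were higher and 0 lower, and of 23 genes of ER to Golgi transport 0 were called. Herpud1 was higher by 0.80 ± 0.09 (9.47e-05), Edem2, a mannosidase-like gene of the degradation pathway, by 0.46 ± 0.08 (0.00271) and Uggt1 by 0.43 ± 0.07 (0.00339). Of the 12 sensors and processing genes, Eif2ak3 was higher (0.30 ± 0.07, 0.0251) and Ern1 lower (-0.37 ± 0.09, 0.0269). Eif2ak3 lost its call without any of the 8 exposed arrays (0.0547 to 0.125) except replicate 1 of the chow RBC group in chow macrophages. Ern1 lost its call without any of them (0.0683 to 0.14) except, in chow macrophages, replicate 2 of the chow RBC group and replicate 1 of the high-fat RBC group. Of 16 heat shock genes 0 were higher and 1 lower, Hspa9 (-0.35 ± 0.06, 0.0057). Of Atf4 and its targets, 7 of 23 were lower and 0 higher, with Ddit3 at -0.98 ± 0.07 (6.54e-07), Nupr1 at -0.69 ± 0.07 (4.29e-05) and Atf4 at -0.38 ± 0.07 (0.00636). Of 13 B and plasma cell markers, 1 was higher and 5 lower, and they averaged 5.16 to 5.27 on the chow arrays with RBC and 4.84 to 4.98 on the high-fat arrays with RBC. Of 9 macrophage markers 0 were higher and 3 lower, with averages of 10.02 to 10.12 and 9.82 to 9.85. Of 14 neutrophil markers 2 were lower (6.19 to 6.33 and 6.07 to 6.34), of 12 mesothelial and fibroblast markers 2 (5.71 to 5.85 and 5.67 to 5.77), of 9 platelet markers 1 (6.39 to 6.83 and 6.40 to 6.84) and of 11 erythroid markers 0 (4.38 to 4.61 and 4.40 to 4.68), and 0 were higher in these 4 lists. Of all genes, 4.85% were called in this comparison, 2.2% as higher. The part of these cell types was not tested.

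**Figure D5:**
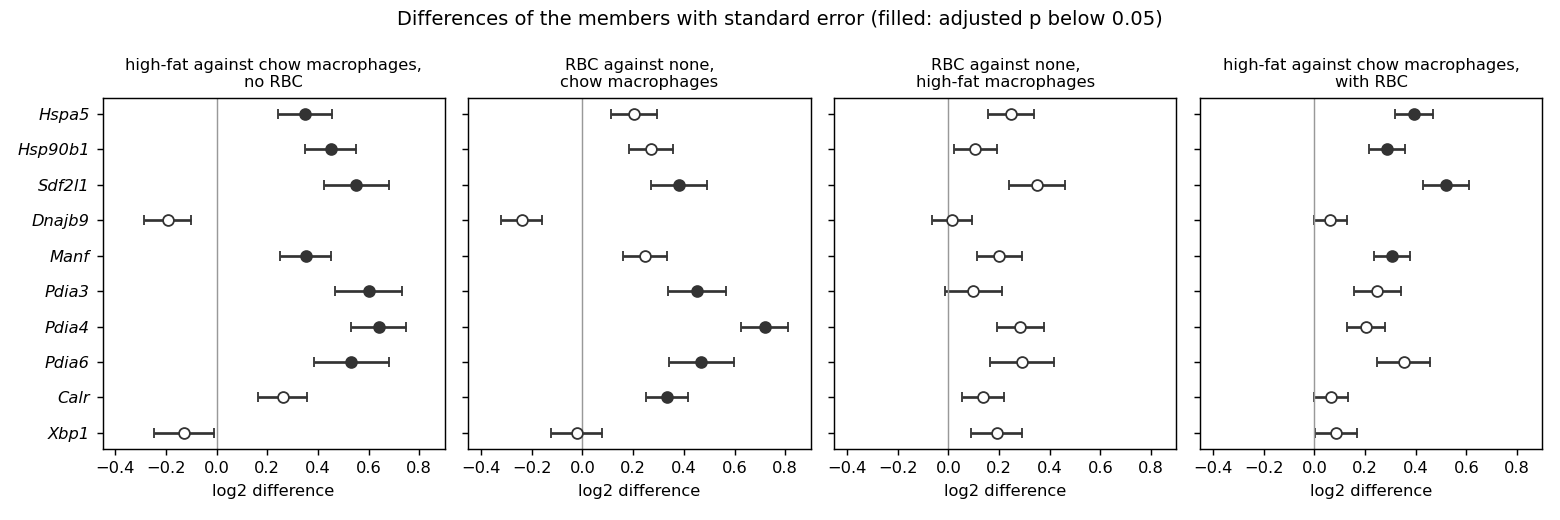
Log2 differences (x axis) of the 10 genes (y axis) in 4 comparisons, with standard errors as bars; filled points had an adjusted p below 0.05. The filled points number 7 for diet without RBC, 5 for RBC in chow macrophages, 0 for RBC in high-fat macrophages and 4 for diet with RBC, and Xbp1 and Dnajb9 are open in all 4.

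The diet of the RBC donor made no difference that limma could call for the 10 genes. High-fat against chow RBC, averaged over both macrophage diets, called 0 of the 10 and 0.01% of all genes, and 0 of the 10 had an unadjusted p below 0.05 against 3.15% of all genes. The differences ran from -0.18 (Sdf2l1) to 0.08 (Pdia3), and the 95% intervals of all 10 lay within -0.38 to 0.28. Within chow macrophages 0 of the 10 and 0% of all genes were called, and within high-fat macrophages 0 of the 10 and 0.0251% of all genes. The interaction of RBC diet with macrophage diet called 0 of the 10 and 0% of all genes. In each of these 3, too, 0 of the 10 genes had an unadjusted p below 0.05, against 2.78%, 3.96% and 3.6% of all genes, and the test with an intensity trend and robust prior called 0.

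Sdf2l1 was the farthest from 0 of the 10 genes in the comparison of RBC diets. Its difference was -0.18 ± 0.13 in chow macrophages and -0.19 ± 0.13 in high-fat macrophages, and both high-fat RBC arrays lay below both chow RBC arrays in each (adjusted p = 1 in both), as they did for 18% and 15.9% of all genes. For Calr the order turned with the macrophage diet, at 0.07 ± 0.10 in chow and -0.07 ± 0.10 in high-fat macrophages, and the interaction was -0.14 ± 0.14 (adjusted p = 1).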

How the data were processed

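Total RNA of the 12 samples was amplified (WTA-Ovation FFPE V2 kit) and labelled (Encore biotin module), per the labels' protocols, and hybridised to Affymetrix Mouse Gene 1.0 ST arrays. The authors deposited 1 table of log2 signals per probe set and array, from 1.46 to 13.33. The log2 scale was read from that range, and the authors' summarisation and normalization are not given in the sources used here. With no raw intensities or detection calls used here, how far a signal stands above background is unknown. Precision is limited by the number of arrays. Of 35556 probe sets with values, 21789 had 1 gene symbol in the platform annotation, 1621 had several and 12146 were unlisted. The probe set with the highest mean stood for the 999 genes with several, which gave 19938 genes. Low values were not filtered out.

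The fit had a mean for each group over the 12 arrays (lmFit, then eBayes, of limma 3.58.1 under R 4.3.3, with 6 residual and 7.69 prior degrees of freedom), and 10 contrasts were tested with Benjamini-Hochberg adjustment over all genes. The procedure was tested on simulated data. Alternatives were quantile normalization, removal of the lowest 33.3% of genes, an intensity trend with robust prior, averaging of the probe sets of a gene, a replicate block over all groups or within macrophage diet, only the compared groups, and omission of each array. Deviations of same-numbered arrays correlated at -0.23 to 0.34 over 15 pairs of groups, 2 of them over 0.1. Both of these were within a macrophage diet, each with its group without RBC: high-fat RBC in high-fat macrophages (0.34) and chow RBC in chow macrophages (0.14). The remaining pairs within a diet lay between -0.08 and 0.03. Whether the replicate numbers pair the samples cannot be told from this check.

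The 10 genes and the gene lists were chosen with earlier results of these data known. All 10 are named; from each other list up to 4 called genes of smallest p in a comparison, or up to 2 where none was called, could be named, and Atf4 and Ddit3 always, and some of these were then left out for length. Promoters and motifs were read from RefSeq (GRCm38.p6), which paired 9 of the 10 genes with a promoter.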

Additional observations from a re-analysis of the deposited data

Results flagged for a closer look

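The RBC response of high-fat minus that of chow macrophages, the interaction tested with limma over all genes, was called for 0 of the 10 chaperone genes and Xbp1 and for 5.67% of all genes. In the other ER lists it was called for 4 genes. These were 1 of 28 chaperones and oxidoreductases, Herpud1 and Erlec1 of 23 degradation genes, and 1 of 23 genes of ER to Golgi transport. It was called for 0 of 29 genes of translocation and N-glycosylation and for 0 of 12 sensors and processing genes. In the list of Atf4 and its targets it was called for 7 of 23. Herpud1 had an interaction of 0.91 (adjusted p = 0.00338), from -0.46 in chow to 0.45 in high-fat macrophages. Kdelr3 had -0.96 (0.001), from 0.80 to -0.16. Erlec1 had -0.55 (0.0118), from 0.49 to -0.06, and was not called without replicate 2 of the chow macrophages with no RBC (0.0863). Fkbp7 had -0.61 (0.026), from 0.485 to -0.12, and was not called without any 1 of 5 arrays, namely in chow macrophages replicate 2 of the chow RBC group (0.0502) or either array without RBC (0.082 and 0.107), and in high-fat macrophages replicate 2 of the chow RBC group (0.0618) or of the no RBC group (0.0838).

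Among Atf4 targets, Slc7a11 had an interaction of 1.53 (adjusted p = 9.42e-06), from -0.72 in chow to 0.80 in high-fat macrophages. Asns had 1.10 (0.000103), from -1.34 to -0.24, and Nupr1 had 1.06 (0.000151), from -1.38 to -0.32. Slc7a5, an amino acid transporter gene, had 0.66 (0.01), from -0.62 to 0.04, and was not called without replicate 2 of the chow macrophages with no RBC (0.0595). The other called genes of that list, named after their values were seen, were Ppp1r15a with 0.66 (0.0453), Mthfd2 with 0.50 (0.0436) and Trib3 with 0.45 (0.0402). Ppp1r15a was not called without any 1 of 9 of the 12 arrays (0.0664 to 0.165), and had 0.41 without replicate 1 of the no RBC group in high-fat macrophages (0.152). The 3 arrays whose omission kept its call were, in chow macrophages, replicate 1 of the chow RBC group and, in high-fat macrophages, replicate 1 of the high-fat RBC group and replicate 2 of the no RBC group. Mthfd2 kept its call only without the first or the second of these 3 (otherwise 0.0592 to 0.179), and not with the replicate number as a block (0.0579, or 0.0541 within macrophage diet). Trib3 kept its call only without the first (otherwise 0.0546 to 0.183), and not with the block within macrophage diet (0.0502).

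For Calr, both arrays with high-fat RBC lay above both with chow RBC in chow macrophages and below them in high-fat macrophages, a difference of -0.14 between the RBC diet effects that limma did not call (adjusted p = 1).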

How the results depend on the processing

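Of 1177 values of the 10 genes under single alternatives, 1054 kept their direction and their side of the threshold, 76 lost a call, 34 gained one and 13 turned direction, none of these 13 called. These values cover the 10 genes in the comparisons of RBC exposure and macrophage diet. In the comparisons of RBC diet only Sdf2l1 entered this count, and the interaction of RBC diet with macrophage diet did not enter it. The number called for RBC against none over all macrophages was 5, and 8 with an intensity trend and robust prior. That prior also called 7 for RBC in chow macrophages (5), 8 for diet without RBC (7) and 5 with RBC (4), and quantile normalization 6, 8 and 5. For RBC in chow macrophages both of these counts include Dnajb9, called as lower (-0.24, adjusted p = 0.0369, and -0.27, 0.0448). For the interaction of RBC exposure with macrophage diet it was 0, and 1 (Pdia4) both with that prior and with the lowest 33.3% of genes left out. For diet without RBC it was 7, and 4 when only the compared groups were fitted. Without 1 array the counts ran from 1 to 6 for RBC over all and from 1 to 6 in chow macrophages, from 0 to 2 in high-fat macrophages, from 2 to 7 for diet without RBC and from 2 to 5 with RBC; a lone remaining array was assumed to vary like the other groups. For the turned values the range without 1 array was, for RBC in chow macrophages, -0.0735 to 0.0275 for Xbp1, for RBC in high-fat macrophages, -0.0962 to 0.2938 for Pdia3 and -0.0151 to 0.0441 for Dnajb9, and for diet without RBC, -0.2777 to 0.0218 for Xbp1. For the interaction it was -0.4322 to 0.0742 for Pdia6, -0.0556 to 0.146 for Hspa5 and -0.2532 to 0.1873 for Sdf2l1. Dnajb9 with RBC in high-fat macrophages also turned with quantile normalization, at -0.0365, and the cause was not tested. With the replicate number as a block, 4 genes were called for RBC over all macrophages (Manf lost its call, adjusted p = 0.0573), 5 in chow and 0 in high-fat macrophages, 7 for diet without RBC and 4 with RBC; within macrophage diet the block gave 7, 6, 0, 7 and 5. Whether these numbers pair the samples is not known. In the RBC diet comparisons, 0 were called under every alternative run. Of 1148 such values of genes chosen from the lists outside the 10, 1077 kept their direction and their side of the threshold and 71 lost a call. Some of these were not called in the main fit, such as Ddit3 for RBC in chow macrophages (limma adjusted p = 0.34).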
